A study of Mus musculus with 14 samples.

Results

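Actn1, Pls1, Atp1b1, Nrp1, Erbb3, Cd163l1, Wdr12 and Apobec2 were followed across 14 arrays of mouse effector CD8+ T cells. They were picked because their mean signal on KLRG1lo arrays was higher in Id2KO and Id2KOBimKO cells than in wild-type (WT) and BimKO cells. They are 8 of 19937 genes with a name on the array, and 8 of the 14438 that were tested. The rule used the Id2 differences themselves, so these are given as a description, without a test. The levels in WT KLRG1hi cells, the effect of the Bim genotype and the bases before the genes' starts were not used to pick them.

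The samples were OT-I CD8+ T cells, which carry a receptor for an ovalbumin peptide, on a C57BL/6J background. Donor cells came from fetal liver chimeras, were placed in congenic recipients, and were sorted on day 6 after infection with Listeria expressing ovalbumin. The 5 groups were WT KLRG1hi (3 arrays), WT KLRG1lo (5 arrays), and Id2KO, BimKO and Id2KOBimKO, all KLRG1lo, with 2 arrays each. In all groups the RNA was amplified in more than 1 round before labelling. The labels name each genotype without describing the allele, and do not say whether replicates came from separate animals, so the tests see only how far these arrays scatter, which may be technical. In the text below Id2KO, BimKO and Id2KOBimKO always mean KLRG1lo cells.

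Id2 is a small helix-loop-helix protein without a DNA-binding region. It pairs with E proteins, transcription factors that bind the E-box motif CANNTG, and keeps them from DNA, so that loss of Id2 frees E proteins. In CD8+ T cells Id2 is known for supporting the effector population during infection, and KLRG1, an inhibitory receptor, marks effector cells of a terminal kind. The genes described here have no single function in common: they encode actin crosslinkers, a sodium pump subunit, receptors at the cell surface, a ribosome assembly factor and a member of the APOBEC family.

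Labels were checked with a few transcripts. The log2 signal of Id2 was 10.78 to 11.16 on WT KLRG1lo arrays and 10.75 to 10.93 on BimKO arrays, against 9.73 to 9.88 in Id2KO and 9.64 to 9.84 in Id2KOBimKO. Bcl2l11, which encodes Bim, was 7.36 to 7.66 on BimKO arrays and 7.44 to 7.92 in WT KLRG1lo, so it did not part the groups and the Bim status rests on the labels. Klrg1 was 10.51 to 11.52 in KLRG1hi and at most 6.82 on the other arrays. The CD8 T cell markers, 7 of 7 measured, gave a summed linear signal of 17874 to 28602 over all arrays. This sum was not level: it was 18572 to 22644 in WT KLRG1lo and 17874 to 21054 in BimKO. In Id2KO it was 23111 to 27212, and in Id2KOBimKO 21936 to 22851. The median difference of these markers between Id2KO and WT KLRG1lo was 0.32 log2, against 0.03 over all genes tested. Id2KO arrays stood apart from the other 12 in sex-linked transcripts: Xist was 4.47 to 4.99 there and at least 8.37 elsewhere, while the Y-linked gene Eif2s3y was 7.39 to 8.197 there and at most 3.66 elsewhere. Id2KOBimKO had Xist at 9.16 to 10.22. The part of sex in the differences of Id2KO was not tested. The spread of an array's log2 values, taken as its interquartile range, was also wider in Id2KO (2.83 to 2.87) than in WT KLRG1lo (2.46 to 2.82), with Id2KOBimKO at 2.65 to 2.78 and BimKO at 2.62 to 2.70. For the mean of the differences Id2KO against WT and Id2KOBimKO against BimKO, the median over the CD8 T cell markers was 0.29. That median was 0.085 with quantile normalization and 0.13 with array spread as a covariate.

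Since the genes were picked for a pattern that follows Id2, the E-box motif was searched in the 250 bases before each annotated start. RefSeq windows of assembly GRCm38.p6 were matched by symbol for 7 of the 8 genes, with 9 starts in all because Wdr12 has 3. The windows of 4 genes are shown because these genes differ in KLRG1hi cells or in their motifs: Apobec2 and Actn1, whose KLRG1hi levels go opposite ways, Pls1, with an E-box of the CACCTG type, and Nrp1, with no E-box in this window. E-boxes are in capitals. The windows lie at chr17:48432729-48432978 (minus strand) for Apobec2, chr12:80260364-80260613 (minus strand) for Actn1, chr9:95845280-95845529 (minus strand) for Pls1 and chr8:128358823-128359072 (plus strand) for Nrp1, each printed 5′ to 3′ on the strand of the gene up to the base before the start.
Apobec2: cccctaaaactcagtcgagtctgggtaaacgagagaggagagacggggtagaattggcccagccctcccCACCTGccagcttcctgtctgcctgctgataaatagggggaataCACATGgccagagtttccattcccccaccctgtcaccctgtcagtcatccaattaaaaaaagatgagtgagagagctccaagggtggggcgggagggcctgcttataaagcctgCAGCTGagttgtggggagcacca
Actn1: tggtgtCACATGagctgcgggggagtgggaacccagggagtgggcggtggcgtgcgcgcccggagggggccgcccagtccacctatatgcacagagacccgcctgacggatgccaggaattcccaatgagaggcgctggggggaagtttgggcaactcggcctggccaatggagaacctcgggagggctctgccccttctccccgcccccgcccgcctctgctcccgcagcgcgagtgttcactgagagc
Pls1: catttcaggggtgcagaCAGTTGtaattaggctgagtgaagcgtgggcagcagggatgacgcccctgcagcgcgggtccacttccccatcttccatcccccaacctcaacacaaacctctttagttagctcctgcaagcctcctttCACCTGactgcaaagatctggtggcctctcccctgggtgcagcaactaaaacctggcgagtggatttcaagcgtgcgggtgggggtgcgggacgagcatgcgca
Nrp1: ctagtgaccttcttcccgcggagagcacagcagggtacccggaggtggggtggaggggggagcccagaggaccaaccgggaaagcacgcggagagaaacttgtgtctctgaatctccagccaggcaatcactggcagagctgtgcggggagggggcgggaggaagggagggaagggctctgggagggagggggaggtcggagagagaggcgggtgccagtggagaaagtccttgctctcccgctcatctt

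Apobec2 held 3 E-boxes, a CACCTG that starts 181 bases before the start, a CACATG at 137 and a CAGCTG at 23. Pls1 held CAGTTG at 233 and CACCTG at 104, Actn1 held CACATG at 244, and Cd163l1 held CAATTG at 121. The third start of Wdr12 held CACATG at 228 and CAGATG at 178, while its other 2 starts, Atp1b1 and Nrp1 held none. CANNTG reads the same on both strands, so a single search covers both. It was present in 5 of these 9 windows, and in 66.2% of the 32851 windows of this length in the table. CAGCTG was in 1 of the 9 and in 13.0% of all, and CAGGTG, counted as CACCTG on the other strand too, was in 2 of the 9 and in 17.2% of all. Both are forms of CANNTG and are counted within it. A match is a description of the letters and does not show binding.

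**Figure D1:**
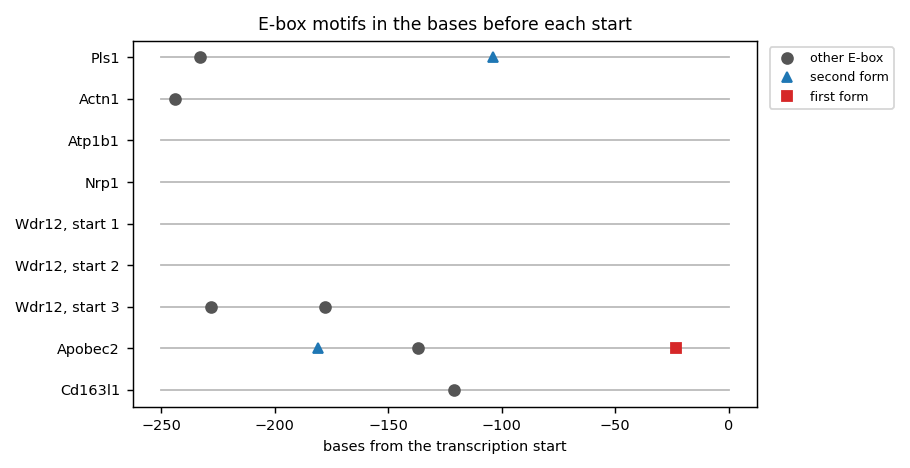
Position of each E-box in the 250 bases before the annotated starts of the 7 genes matched, with the distance from the start in bases on the horizontal axis and 1 line per start. Squares (first form) are CAGCTG, triangles (second form) are CAGGTG on either strand, and circles are other E-boxes. Apobec2 has 3 motifs, while Atp1b1, Nrp1 and 2 starts of Wdr12 have none.

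Over the 8 genes the mean of the Id2 differences ran from 0.95 to 1.44 log2, a rise of 1.94- to 2.72-fold, with a median of 1.16 against 0.02 over all genes tested. In 7 of the 8, all 4 arrays labelled Id2KO or Id2KOBimKO were above all 7 KLRG1lo arrays labelled WT or BimKO, which was true of 1.66% of the genes tested. Erbb3 was the exception. All 4 were also above all 3 WT KLRG1hi arrays for 5 of the 8 (Actn1, Pls1, Atp1b1, Nrp1 and Wdr12), where 6.52% of genes did so. The rule itself, both group means above both others, was met by 26.8% of genes. These shares describe the choice of genes and are not support for it. On all 14 arrays each of the 8 exceeded the 40th percentile of signal that served as the filter, so none entered through its high group alone. In bulk RNA, more cells with a transcript and more RNA per cell cannot be told apart.

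**Figure D2:**
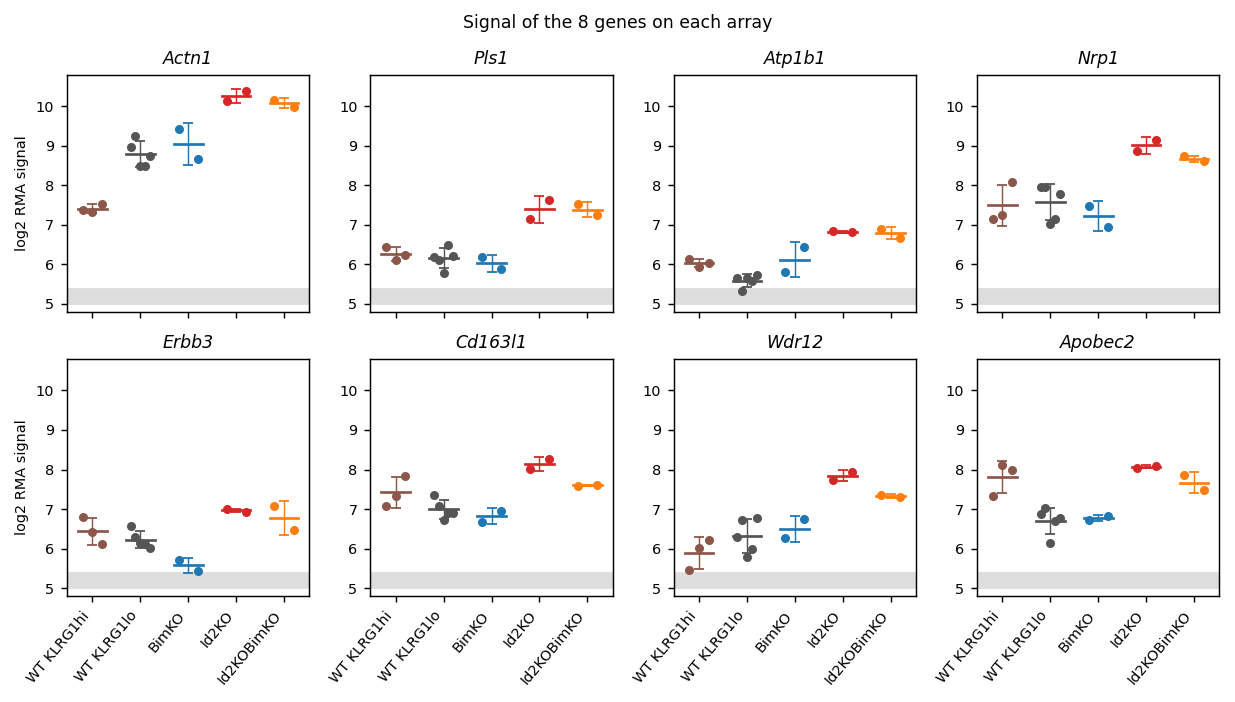
Log2 RMA signal (vertical axis) of each of the 8 genes on the 14 arrays, grouped on the horizontal axis, with a line at the group mean and bars of 1 SD. The grey band, 5.01 to 5.39, spans the arrays' median signal of probe sets without a gene name; Id2KO and Id2KOBimKO lie highest in most panels, while the place of WT KLRG1hi differs from gene to gene.

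Actn1 encodes alpha-actinin 1, which crosslinks actin filaments and ties them to adhesion sites. Its log2 signal was 8.98, 9.25, 8.49, 8.48 and 8.74 on WT KLRG1lo arrays 1 to 5 and 9.41 and 8.66 on BimKO arrays. It was 10.13 and 10.37 in Id2KO and 10.16 and 9.98 in Id2KOBimKO. On WT KLRG1hi arrays it was 7.37, 7.33 and 7.53, below every KLRG1lo array. The order of group means was Id2KO, Id2KOBimKO, BimKO, WT KLRG1lo and WT KLRG1hi, in which Id2KO overlapped Id2KOBimKO and BimKO overlapped WT KLRG1lo. The Id2 difference was 1.46 (SE 0.22) against WT and 1.03 (SE 0.27) in the BimKO background.

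Pls1 encodes plastin 1, or fimbrin, which bundles actin filaments and is best known from epithelial microvilli. Its signal was 6.18, 6.11, 5.78, 6.49 and 6.21 in WT KLRG1lo and 6.18 and 5.87 in BimKO. It was 7.15 and 7.64 in Id2KO and 7.53 and 7.25 in Id2KOBimKO, so both Id2-low groups lay together and clear of the rest. WT KLRG1hi arrays, at 6.45, 6.11 and 6.25, fell within the range of WT KLRG1lo. The Id2 differences were 1.24 (SE 0.20) and 1.36 (SE 0.24) without and with the Bim label.

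Atp1b1 encodes a beta subunit of the sodium-potassium pump, which the catalytic chain needs to reach the membrane. Its signal was 5.66, 5.33, 5.65, 5.57 and 5.74 in WT KLRG1lo, near the 5.01 to 5.39 of unnamed probe sets, so rises from that level may be understated. It was 6.85 and 6.81 in Id2KO and 6.90 and 6.68 in Id2KOBimKO. BimKO arrays, at 5.81 and 6.43, and KLRG1hi arrays, at 6.13, 5.93 and 6.02, lay between, with no overlap with WT KLRG1lo. The Id2 difference was 1.24 (SE 0.18) against WT and 0.67 (SE 0.21) against BimKO.

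Nrp1 encodes neuropilin 1, a co-receptor for class 3 semaphorins and vascular endothelial growth factors that is also present on many regulatory T cells. Its signal was 7.97, 7.96, 7.02, 7.14 and 7.78 in WT KLRG1lo and 7.49 and 6.95 in BimKO. It rose to 8.86 and 9.15 in Id2KO and 8.73 and 8.62 in Id2KOBimKO, which lay just under Id2KO without overlap. KLRG1hi arrays, at 7.14, 7.25 and 8.09, overlapped with WT KLRG1lo. The Id2 differences were 1.43 (SE 0.29) and 1.45 (SE 0.34).

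Erbb3 encodes a receptor of the epidermal growth factor family that binds neuregulins and signals through its partners. It was 6.57, 6.30, 6.14, 6.12 and 6.01 in WT KLRG1lo, 5.71 and 5.44 in BimKO, 6.998 and 6.94 in Id2KO, and 7.07 and 6.46 in Id2KOBimKO. The second Id2KOBimKO array therefore lay 0.11 below the highest WT KLRG1lo array. KLRG1hi arrays, at 6.80, 6.41 and 6.12, overlapped both WT KLRG1lo and Id2KOBimKO. The Id2 difference was 0.74 (SE 0.21) against WT and 1.19 (SE 0.25) against BimKO, where the BimKO arrays were lower than WT.

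Cd163l1 encodes a receptor with scavenger receptor cysteine-rich domains, known in mice from gamma delta T cells. It was 7.35, 7.08, 6.72, 6.91 and 6.89 in WT KLRG1lo, 6.67 and 6.96 in BimKO, 8.01 and 8.27 in Id2KO, and 7.59 and 7.61 in Id2KOBimKO. Id2KO stood above every other group, and Id2KOBimKO overlapped with KLRG1hi, which was at 7.09, 7.33 and 7.85. The Id2 differences were 1.15 (SE 0.20) and 0.78 (SE 0.24).

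Wdr12 encodes a subunit of the complex with Pes1 and Bop1 that matures the large ribosomal subunit. It was measured by 2 probe sets, and the one with the higher mean signal is used. The platform annotation names both Wdr12, but the 10 probe sets numbered nearest to the one used belong to genes on chromosome 7, while Wdr12 lies on chromosome 1, as do 9 of the 10 nearest to the other. Whether the probe set used reads a copy of Wdr12 elsewhere was not tested, so its values are uncertain as a measure of the gene itself. On that probe set it was 6.30, 6.71, 5.80, 5.98 and 6.78 in WT KLRG1lo, 6.26 and 6.74 in BimKO, 7.74 and 7.95 in Id2KO, and 7.36 and 7.30 in Id2KOBimKO. KLRG1hi arrays were at 5.45, 6.02 and 6.22. Id2KO and Id2KOBimKO did not overlap each other, and both were above the rest.

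The other Wdr12 probe set correlated with the first at r = 0.945 over the 14 arrays, which share their RNA. It was 6.13, 6.12, 5.57, 5.64 and 6.13 in WT KLRG1lo, 5.65 and 6.15 in BimKO, and 5.26, 5.52 and 5.45 in KLRG1hi. It placed Id2KO at 7.40 and 7.55 and Id2KOBimKO at 7.33 and 7.59, which overlap. The probe sets thus differed in the background-specific estimate: the Id2 difference was 1.53 (SE 0.26) against WT and 0.84 (SE 0.31) against BimKO on the first, and 1.56 on both comparisons on the other (SE 0.20 and 0.24).

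**Figure D3:**
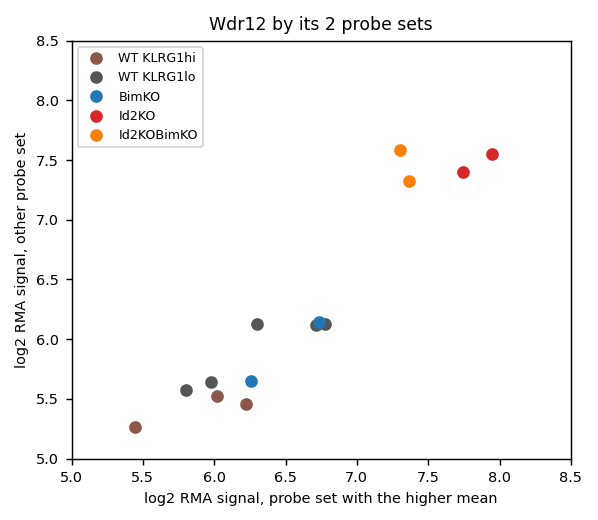
Log2 RMA signal of Wdr12 on its 2 probe sets, with the one of higher mean on the horizontal axis and the other on the vertical axis, 1 point per array and colours for the groups. The 4 Id2KO and Id2KOBimKO arrays lie apart at the upper right, and Id2KOBimKO is below Id2KO on the horizontal axis (at most 7.36 against at least 7.74) but not on the vertical one.

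Apobec2 encodes a relative of the APOBEC cytidine deaminases that is best known from muscle. It was 6.87, 7.02, 6.15, 6.70 and 6.78 in WT KLRG1lo, 6.72 and 6.82 in BimKO, 8.05 and 8.09 in Id2KO, and 7.85 and 7.49 in Id2KOBimKO. In KLRG1hi cells it was 7.34, 8.11 and 7.99, above every WT KLRG1lo array and overlapping both Id2-low groups. The Id2 differences were 1.37 (SE 0.23) and 0.90 (SE 0.27).

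WT KLRG1hi and WT KLRG1lo cells were compared next, to place the 8 genes on the axis of terminal effector differentiation. Apobec2 rose 2.16-fold in KLRG1hi (1.11 log2, SE 0.20, adjusted p = 0.00990, limma) and Actn1 fell by 1.38 log2 (SE 0.19, adjusted p = 0.00119, limma), so these 2 passed in opposite directions. Of the 8, then, 1 rose and 1 fell, where 0.679% of the genes tested rose and 0.263% fell. The other 6 did not pass. Their median with the 2 included was 0.16, against 0.002 over all genes. KLRG1hi arrays did not overlap WT KLRG1lo arrays for Apobec2 and Atp1b1, which were higher (2.41% of all genes), and for Actn1, which was lower (1.77% of all genes). These counts use the Wdr12 probe set of higher mean, which overlapped. On the other Wdr12 probe set KLRG1hi arrays (at most 5.52) lay just below WT KLRG1lo arrays (at least 5.57). At an unadjusted p under 0.05, the estimates of Apobec2, Atp1b1 and Cd163l1 were above 0 (4.34% of all genes) and that of Actn1 below it (2.86%). This too uses the Wdr12 probe set of higher mean, while the other was at -0.51 (SE 0.17). The WT KLRG1lo arrays also served to pick the genes, and a choice of genes low there favours a higher KLRG1hi level.

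Among the genes that did not pass, Atp1b1 was at 0.44 (95% interval 0.11 to 0.76, adjusted p = 0.358) and Cd163l1 at 0.43 (0.05 to 0.81, adjusted p = 0.552). Pls1 was at 0.11 (-0.25 to 0.48, adjusted p = 1.00), Erbb3 at 0.21 (-0.18 to 0.60, adjusted p = 0.954), and Nrp1 at -0.08 (-0.61 to 0.45, adjusted p = 1.00). Wdr12 was at -0.42 (-0.90 to 0.06, adjusted p = 0.827), and its other probe set at -0.51 (SE 0.17). The intervals of Pls1, Nrp1 and Erbb3 thus end below 0.60, while their mean Id2 differences, which the rule chose, were 1.30, 1.44 and 0.97.

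The call for Apobec2 was lost without WT KLRG1hi replicate 2 (0.96, adjusted p = 0.119), with the replicate number as a block (1.13, adjusted p = 0.102) and within the array set of lower background described next (0.78, adjusted p = 0.0754). Actn1 passed in each of 27 alternatives run. The arrays also fall into 2 sets by the signal of unnamed probe sets, which no label names. The sets follow the order in which the samples are listed, with the set of lower background first. No BimKO array is in that set, while every other group has arrays in both sets. Within the set of lower background, 2 KLRG1hi and 2 KLRG1lo arrays, Actn1 was at -1.77 and Apobec2 at 0.78, and within the other, 1 against 3 arrays, they were at -1.04 and 1.45. Nrp1 turned from -0.77 to 0.77 between these sets and Cd163l1 was at -0.0083 and 1.00, so neither kept its direction.

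**Figure D4:**
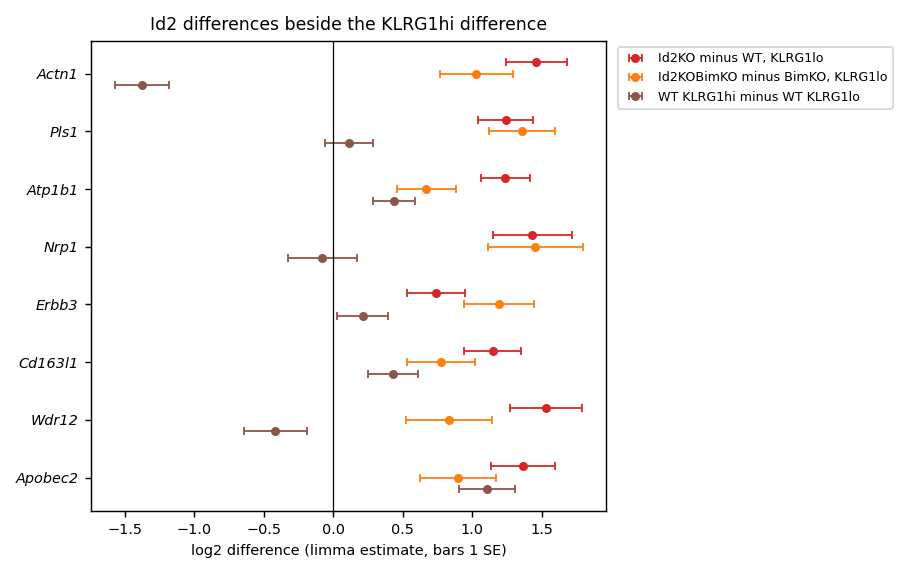
Log2 differences (horizontal axis, limma estimates with bars of 1 SE) for each of the 8 genes, for Id2KO against WT, Id2KOBimKO against BimKO, and WT KLRG1hi against WT KLRG1lo. The Id2 differences lie between 0.67 and 1.53 for all 8 genes, by choice, while the KLRG1hi difference runs from -1.38 for Actn1 to 1.11 for Apobec2.

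Bim, the product of Bcl2l11, promotes cell death through mitochondria, and the BimKO label splits the cells with and without Id2 into groups with and without it. No BimKO array was in the array set of lower background. Comparisons with BimKO, including the Id2 difference against it, therefore cannot be fully told apart from these sets. None of the 8 genes passed between BimKO and WT in limma, where none of all genes tested passed either (0% higher and 0% lower). At an unadjusted p under 0.05, Atp1b1 was higher (0.53, SE 0.18, adjusted p = 0.657) and Erbb3 lower (-0.66, SE 0.21, adjusted p = 0.657), and no other of the 8; over all genes 2.51% were higher and 4.41% lower at that level.

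Between Id2KOBimKO and Id2KO none of the 8 passed in limma either, where 0.00693% of all genes were higher and 0.0208% lower. At an unadjusted p under 0.05 Cd163l1 was lower (-0.54, SE 0.24, adjusted p = 1.00), and 0.471% of all genes were lower at that level (0.332% were higher, none of the 8). All 8 estimates were below 0, from -0.54 to -0.0079, and their median was -0.27 against -0.03 over all genes. These groups differ in the sex-linked transcripts and in array spread as given above. With the spread as a covariate the 8 estimates ran from -0.34 to -0.02, and with quantile normalization Pls1 was at 0.0695.

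The interaction, the Id2 difference between the groups labelled BimKO minus that between the groups without that label, passed for none of the 8 in limma (0.00693% and 0.0208% of all genes passed higher and lower) and had an unadjusted p under 0.05 for none of them (2.47% and 1.79% of all genes). Its estimates ran from -0.69 for Wdr12 (95% interval -1.55 to 0.16) to 0.46 for Erbb3 (-0.23 to 1.15), with Atp1b1 at -0.57 (-1.15 to 0.01) and Apobec2 at -0.47 (-1.23 to 0.28), each with adjusted p = 0.726. On the other probe set of Wdr12 the interaction was 0.0039 (SE 0.31). With 2 arrays in 3 of the 4 groups, interactions of up to about the size of the Id2 difference itself lie within these intervals. Id2KO alone stood apart in the sex-linked transcripts, so the interaction cannot be told apart from sex. It is also partly mixed with array spread, widest in Id2KO, and with the background sets.

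Relatives of the 8 genes were described from lists of 7 families; over all genes tested, 0.152% passed higher and 0.0277% lower for the mean Id2 difference. Among 16 other actin bundling and crosslinking genes, none passed between KLRG1hi and KLRG1lo or for the mean Id2 difference. The leukocyte plastin Lcp1, a close relative of Pls1, was at 0.26 for the mean Id2 difference (adjusted p = 0.620), the filamin Flna at 0.39 and the adhesion adaptor Tln1 at 0.41 (adjusted p = 0.620 for both), and Actn4, the other alpha-actinin of non-muscle cells, at 0.33. The median of these 16 was 0.10 for the mean Id2 difference and 0.12 in KLRG1hi, where all genes were at 0.02 and 0.002. The former was 0.034 with quantile normalization and 0.0076 when array spread was a covariate, with 8 of the 16 above 0 in each. Of 10 other sodium pump genes none passed in either comparison. Atp1b3, another beta subunit, was at 0.34 for the mean Id2 difference and 0.38 in KLRG1hi (adjusted p = 0.620 and 0.532), the regulator Fxyd5 was at 0.28 and 0.30, and Fxyd6 at 0.02 and -0.05. Of the catalytic chains, Atp1a4 and the related proton pump chain Atp4a were tested, at -0.12 and -0.15 for the mean Id2 difference, and the other sodium pump alpha chains were not analysed here.

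Of 19 other genes of the neuropilin, plexin, semaphorin and VEGF list, Sema4f rose in KLRG1hi by 0.83 (adjusted p = 0.0375, limma), from 6.15 ± 0.28 (SD, n = 5) to 6.98 ± 0.38 (SD, n = 3). Sema7a, a membrane-anchored semaphorin with roles in T cell inflammation, was singled out after its values were seen: its mean Id2 difference was 0.91 (SE 0.17, adjusted p = 0.0240, limma), with group means of 7.36 in Id2KO and 7.22 in Id2KOBimKO against 6.51 in WT KLRG1lo and 6.25 in BimKO. It did not pass with quantile normalization. No other gene of the list passed in either comparison. Nrp2, the other neuropilin, was at 0.0039 for the mean Id2 difference, Sema4d at 0.41 and Sema4a at 0.05.

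Of 24 other factors of large ribosomal subunit assembly, Mdn1, a large ATPase that remodels precursor particles, fell in KLRG1hi by 0.78 (adjusted p = 0.0292, limma), and none passed for the mean Id2 difference. That difference was nevertheless positive for 23 of the 24 (52.6% of all genes), with a median of 0.22 against 0.02 over all genes. Pes1 was at 0.44 and Bop1 at 0.31, the partners of Wdr12 in its complex, and Ncl at 0.11, Npm1 at 0.0021 and Ddx18 at 0.18. When array spread was a covariate, the count fell to 13 of 24 and the median to 0.02, while Wdr12 was at 0.88. With quantile normalization the count was 20 of 24 and the median 0.11. The list's median was 0.47 in Id2KO against WT and 5.15e-05 in Id2KOBimKO against BimKO.

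Of the 2 other APOBEC genes tested, Apobec3, which restricts retroviruses, was at 0.27 for the mean Id2 difference and -0.28 in KLRG1hi, and Apobec1, which edits RNA, at -0.27 and -0.17, and neither passed. Of 8 other genes with scavenger receptor cysteine-rich domains none passed in either comparison. The T cell receptors' modulators Cd5 and Cd6 were at 0.47 and 0.41 for the mean Id2 difference and at -0.63 and -0.41 in KLRG1hi (adjusted p = 0.0913 for Cd5 there), and Lgals3bp was at 0.50 and 0.02. Of 11 other ErbB genes none passed. Erbb2, the usual partner of Erbb3, was at -0.07 for the mean Id2 difference, the feedback inhibitor Errfi1 at 0.36, the ubiquitin ligase Rnf41, which acts on Erbb3, at 0.24, and the ligand gene Tgfa at 0.02. The median of this list for the mean Id2 difference went from -0.06 to 0.10 with array spread as a covariate. For the scavenger receptor list it went from -0.12 to 0.03, and for the sodium pump list from -0.11 to 0.09. With quantile normalization the medians were -0.0047 for the ErbB list, -0.11 for the scavenger receptor list and -0.055 for the sodium pump list.

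**Figure D5:**
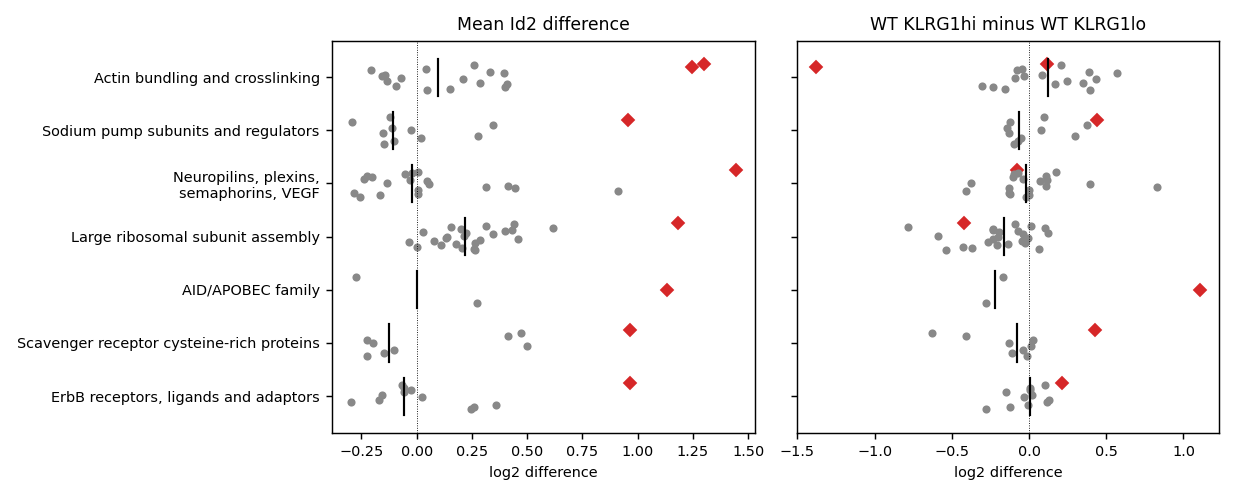
Log2 differences (horizontal axes) of the tested genes of 7 family lists, for the mean Id2 difference (left) and WT KLRG1hi against WT KLRG1lo (right). Diamonds are the 8 genes described, circles are the other genes of each list, and black bars are the medians of the circles, which for the mean Id2 difference run from -0.12 to 0.22. With array spread as a covariate, which is not drawn, these medians ran from 0.0076 to 0.10. With quantile normalization, also not drawn, they ran from -0.11 to 0.11.

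Some of the 8 genes are known from other cells, so markers of those cells were read beside them. The gamma delta T cell markers that were measured, 5 of 12 listed and without the receptor genes, gave a summed linear signal of 275 to 355 in Id2KO and 346 to 369 in Id2KOBimKO, against 379 to 488 in WT KLRG1lo, where Cd163l1 was lower. The 7 CD4 and regulatory T cell markers summed to 785 to 833 in Id2KO and 742 to 787 in Id2KOBimKO, 551 to 643 in WT KLRG1lo and 616 to 1139 in BimKO. Within that list Ctla4 and Zbtb7b had mean Id2 differences of 0.88 and 0.52 (adjusted p = 0.109 and 0.110, limma), while Cd4 was at -0.29 and Foxp3 at -0.27 (adjusted p = 0.620 for both). Ctla4 was at 1.38 (SE 0.25) in Id2KO against WT but 0.39 (SE 0.29) in Id2KOBimKO against BimKO. Zbtb7b was at 0.41 (SE 0.15) and 0.64 (SE 0.18). Cd4 was 5.13 in Id2KO and 5.59 in WT KLRG1lo, near unnamed probe sets. Platelet markers summed to 279 to 309 in Id2KO, 305 to 361 in Id2KOBimKO and 284 to 416 in WT KLRG1lo, and epithelial and muscle markers to 558 to 570, 575 to 590 and 583 to 789. Monocyte and macrophage markers summed to 488 to 934 in WT KLRG1lo, 427 to 662 in BimKO, 432 to 457 in Id2KO and 422 to 566 in Id2KOBimKO, and neutrophil markers to 237 to 585, 243 to 354, 208 to 248 and 237 to 252. B cell markers summed to 404 to 679 in WT KLRG1lo, 402 to 592 in BimKO, 393 to 432 in Id2KO and 449 to 504 in Id2KOBimKO, and dendritic cell markers to 1353 to 1680, 1356 to 1403, 1502 to 1597 and 1340 to 1417. NK cell markers summed to 849 to 1156 in WT KLRG1lo, 803 to 934 in Id2KO and 827 to 857 in Id2KOBimKO, and reached 2524 in KLRG1hi; the median over the 4 tested was -0.62 for the mean Id2 difference and 0.53 in KLRG1hi. These sums are not corrected for array spread. The median of the mean Id2 difference went from -0.07 to 0.03 for platelet markers with spread as a covariate. For neutrophil markers it went from -0.31 to 0.0073. For epithelial and muscle markers it went from -0.17 to 0.04, and for B cell markers from -0.20 to 0.0008. It stayed below 0 for dendritic (-0.06), gamma delta (-0.11), CD4 and regulatory (-0.12), monocyte and macrophage (-0.20) and NK cell markers (-0.62). Spread itself differed between the groups, so this covariate can also take up part of an Id2 difference. With quantile normalization the medians were -0.06 for platelet, -0.24 for neutrophil, -0.14 for epithelial and muscle and -0.15 for B cell markers. The part of other cells in the differences was not tested.

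The 8 genes were compared with each other over the 14 arrays, which share depth of signal and array spread. Pearson's r was positive for all 28 pairs, from 0.14 for Actn1 with Apobec2 to 0.87 for Nrp1 with Wdr12, with a median of 0.69; the choice of genes favours this. When each group's mean was subtracted, which removes what the rule used, r was positive for 19 of 28 pairs, from -0.67 for Actn1 with Atp1b1 to 0.80 for Actn1 with Nrp1, with a median of 0.19. Within groups, Nrp1, Wdr12, Apobec2 and Cd163l1 were paired at 0.61 to 0.78 in all 6 combinations, and Actn1 with Nrp1 at 0.80, while Pls1, Atp1b1 and Erbb3 had no partner above 0.38.

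The genes most like each member over the 14 arrays were also read. For Actn1 they were Carmil2, a regulator of actin capping protein (r = 0.979), and the inhibitory receptor gene Btla (r = 0.977). For Apobec2 they were the shedding protease Adam17 (r = 0.945) and the cholesterol transporter Npc1 (r = 0.938). Adam17 (r = 0.918) and Nelfcd (r = 0.915) came first for Cd163l1, and the cytokine receptor gene Il21r (r = 0.963) and Fam3c (r = 0.940) for Wdr12. For Nrp1 they were Gpr146 (r = 0.925) and Hsdl1 (r = 0.909), for Pls1 Zbtb7b, a regulator of the CD4 lineage (r = 0.876), and Sema4b (r = 0.869). Erbb3 had Lsm11 (r = 0.868) and Pofut2 (r = 0.848), and Atp1b1 had the phosphatase gene Phlpp1 (r = 0.841) and Pls1 itself (r = 0.801). Closest to the mean of the 8 genes, each scaled to unit variance, were Cdyl2 (r = 0.930), Ttll12 (r = 0.902) and Ppm1h (r = 0.892). Group means of Ttll12 were 8.25 in Id2KO, 7.997 in Id2KOBimKO, 7.34 in WT KLRG1lo, 7.23 in BimKO and 7.43 in KLRG1hi. These r hold the group differences that the rule used. With group means subtracted, Pls1 was at 0.32 with Zbtb7b and 0.24 with Sema4b. Atp1b1 was at 0.44 with Phlpp1 and -0.12 with Pls1, and the other r named here were 0.53 or higher. The neighbours were picked for the highest r over these same arrays, which favours a high r within groups too.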

How the data were processed

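RNA from 14 sorted samples was hybridised to single-colour arrays, 1 per sample. The authors deposited RMA intensity values, not logged, for 34760 probe sets; the submitters' processing notes name RMA without a version and mm9. That they are linear follows from their range; centring against scanner values is unknown. They were turned to log2 with no offset. Of the probe sets, 21640 carried 1 gene symbol, 1321 several and 11799 none; symbols were updated by Entrez number with a RefSeq table of GRCm38.p6 (21553 matched), used for names only. The probe set with the highest mean stood for a gene. Genes above the 40th percentile of an array on at least 2 arrays were tested.

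Group means over all 14 arrays were fitted with limma 3.58.1 in R 4.3.3, which left 9 residual degrees of freedom and added 7.99 by its prior. All tests are two-sided. Passing means a p under 0.05 after Benjamini-Hochberg adjustment across the genes tested, and every adjusted p is of this kind. The number of arrays limits the precision. The members, lists and tests were chosen with earlier results of these data known. Named genes were the 8 members, 3 checks of labels, from each family those that passed between KLRG1hi and KLRG1lo and the 3 of highest signal, and the 2 most like each member; a few more relatives and markers were named after their values were seen. Predicted and clone names were passed over.

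Alternatives left out the filter or set it at the 60th percentile, normalized by quantiles, used robust variances with a trend, added the replicate number as a block or array spread as a covariate, fitted only the compared groups, averaged probe sets, added an offset of 16, asked for 1.5-fold, or dropped single arrays. Fits within the 2 array sets by background signal, or with the set as a covariate, were chosen after seeing the data.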

Additional observations from a re-analysis of the deposited data

How the results depend on the processing

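With 8 genes and 4 comparisons, the count of genes that passed between KLRG1hi and KLRG1lo was 2, and it was 1 with a replicate block, 1 within the array set of lower background, 3 within the higher set, and 1 to 2 when arrays were left out in turn. The call lost was that of Apobec2, at 1.13 with the replicate block (adjusted p = 0.102) and 0.78 within the lower set (adjusted p = 0.0754); the cause was not tested. Cd163l1 was the gene added within the higher set (1.00, adjusted p = 0.0127). The counts for the Bim comparisons and the interaction were 0 in each alternative run, and the median of the mean Id2 differences stayed between 0.99 and 1.21.

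Whether replicate numbers pair the samples could not be settled. Deviations of same-numbered WT KLRG1hi and KLRG1lo arrays correlated at -0.18, 0.06 and -0.52, which are too few to decide. Across all groups the median r was 0.06 for same-numbered arrays, with 10 of 21 pairs above 0.1. It was -0.01 for other arrays, with 17 of 54 pairs above 0.1. The labels give the replicate block only a shared number. Fitting this block changed no call among the 8 genes other than that of Apobec2.

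Each sign that turned belonged to a value that had not passed. For BimKO against WT, Apobec2 was at -0.038 with the array spread as a covariate. For Id2KOBimKO against Id2KO, Pls1 was at 0.0695 with quantile normalization, and within the lower background set Pls1 was at 0.38, Actn1 at 0.029, Atp1b1 at 0.053 and Erbb3 at 0.075. For KLRG1hi against KLRG1lo, Cd163l1 was at -0.0083 within the lower set, and Nrp1 at 0.77 and Wdr12 at 0.035 within the higher one. For the interaction, Pls1 was at -0.26 and Nrp1 at -0.44 within the higher set.

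Leaving out each array gave a range of -0.38 to 0.094 for Nrp1 in KLRG1hi. For BimKO against WT the range was -0.28 to 0.030 for Pls1, -0.13 to 0.62 for Actn1, -0.057 to 0.42 for Wdr12 and -0.069 to 0.15 for Apobec2. For Id2KOBimKO against Id2KO it was -0.25 to 0.24 for Pls1, -0.15 to 0.071 for Atp1b1 and -0.50 to 0.11 for Erbb3. For the interaction it was -0.13 to 0.36 for Pls1 and -0.25 to 0.29 for Nrp1. Groups of 2 arrays then hold a lone array, which is assumed to vary like the other groups. Within the lower background set there is no BimKO array, so the comparisons with it were not run there. Judged by the lowest array, signal near that of unnamed probe sets limits Atp1b1 (5.33), Erbb3 (5.44) and Wdr12 (5.45) most. Pls1 came next at 5.78.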
